A study of Mus musculus with 12 samples.

Results

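The genes described here are the collagens and a set of matrix and transporter genes of the fibrous coverings of the brain, read in the hypothalamus of mouse pups at postnatal day 6 (P6). A gene was a member if its symbol had the form of a collagen chain (Col, a number, a and a number) or if it was 1 of 16 listed genes: Dcn, Lum, Bgn, Fmod, Ogn, Pcolce, Sparc, Fn1, Fbln1, Fbln2, Igfbp2, Islr, Slc6a13, Slc13a4, Foxc1 and Foxd1. A sum of at least 10 counts over the 12 libraries was also required. This gave 59 members among the 43280 gene rows of the count table, 43 collagens and the 16 listed genes. The rule itself used no comparison between groups, but the members were chosen with earlier results of these data known. Of the 60 genes that matched by name, Col17a1 had 5 counts in all and was left out, while Col4a3 (12 counts), Col28a1 (13) and Col20a1 (18) were the members nearest to the minimum.

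Both groups were C57/Bl6 male pups killed at P6, with 6 hypothalami each. Pups of the modified maternal separation (MMS) group had been put on a heating pad beside the home cage for a short daily session. There they were turned gently onto their backs. The sessions ran over a few days that ended at P6, not from birth, and these pups were killed straight after the last session. Control pups came from the same litters and were not separated in this way. Each reduced litter held control and MMS males, assigned at random, but the litter of a given library is not in the labels, so litter could not enter a model and p-values measure the spread between these libraries. Messenger RNA was read from its 3′ end, so that a transcript gives about 1 read whatever its length, and levels are given as TMM-scaled CPM, counts per 1000000 counts of the library, not divided by length.

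Collagens are built from 3 chains wound into a triple helix. Fibrillar collagens form the tough fibres of connective tissue, type IV collagen forms the sheet-like basement membrane beneath vessels and beneath the brain surface, and other collagens decorate fibres, link them, or sit in the cell membrane. Inside the brain, fibrillar collagen and small leucine-rich proteoglycans such as decorin are made mainly by fibroblasts of the meninges and of the larger vessels, whereas type IV collagen is made mainly by endothelial cells and pericytes. Slc6a13 and Slc13a4, carriers for GABA and taurine and for sulphate, are also well known from the leptomeninges, the inner layers that lie directly on the hypothalamus at the base of the brain.

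Library totals ran from 3218777 to 6560620 counts. The 12 hypothalamic markers had a summed level of 839.5 to 1815 CPM in controls and 1253 to 1694 CPM in the MMS group. Of the 11 tested, 3 had a log2 fold change (MMS over control) below 0, and the median was 0.26. Single markers were less even. Agrp had no count in MMS 2, and Rax had none in MMS 2 and MMS 4. Pomc was lowest in MMS 4, at 3.19 CPM (controls 11.8 to 41.7 CPM), and Hcrt in control 5, at 25.1 CPM. On the first principal component of all genes tested, which held 30.4% of the variance, MMS 2 and MMS 4 stood at 57.8 and 46.3 and the other 10 libraries between -14.4 and -3.04. The counts the text leads with are therefore also given without this pair.

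Members differed widely in abundance. Sparc, a collagen-binding glycoprotein that many brain cell types make, had 1128 to 1363 CPM in controls (median 1269) and 863 to 1332 CPM in the MMS group (median 1191), and it alone made up 51.1% to 68.8% of the members' summed CPM in a library. Igfbp2, a binding protein for insulin-like growth factors, followed in controls with a mean of 87.4 CPM ± 21.8 (SD, n = 6). Col1a2, Col4a2, Col4a1, Col9a2, Col25a1 and Col1a1 had control means of 54.7, 52.5, 49.6, 48.2, 41.7 and 39.4 CPM. At the other end, 15 members did not pass the count filter used before testing: 14 collagens and Lum, which encodes lumican and had 0.431 to 3.86 CPM. Among these, Col20a1 had counts in 3 libraries only, and Col4a3, whose chain belongs to the type IV collagen of kidney and lung, in 4. The other 44 members, 29 collagens and 15 listed genes, were tested.

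No member differed between MMS and control pups after adjustment over all genes. In edgeR's quasi-likelihood test with Benjamini-Hochberg adjustment over 13104 genes, 0 of the 44 members passed an adjusted p of 0.05, and their lowest adjusted p was 0.543. Over all genes tested the share called was 0%, and the smallest adjusted p was 0.103. DESeq2 called 0 members and 7 of 23534 genes in all, and limma-voom called 0 members and 0 of 13104 genes. At an unadjusted p under 0.05, 3 members were lower in MMS pups (6.82%) and 0 were higher, against 4.40% of all genes lower and 4.68% higher. In 0 of 44 members did the 2 groups fail to overlap, compared with 0.389% of all genes.

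Most point estimates nevertheless lay below 0. The fold change was below 0 in 36 of 44 members (81.8%), or in 32 of 46 without MMS 2 and MMS 4. The median log2 fold change of the 44 was -0.25, while over all genes tested 49.9% lay below 0 and the median was 0.00091. These shares carry no test, because the members were chosen with earlier results known, and members read in the same pieces of tissue are not independent. Single libraries moved them: the median came to -0.52 on leaving out MMS 1, to -0.12 on leaving out control 3, to -0.13 or -0.15 on leaving out MMS 4 or MMS 5, and to -0.11 with both MMS 2 and MMS 4 left out. The 95% intervals of single members were wide. Their half-width had a median of 0.67 on the log2 scale, bounds ran from -2.34 for Slc13a4 to 1.42 for Slc6a13, and the interval reached below a halving in 20 of 44 members.

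**Figure D1:**
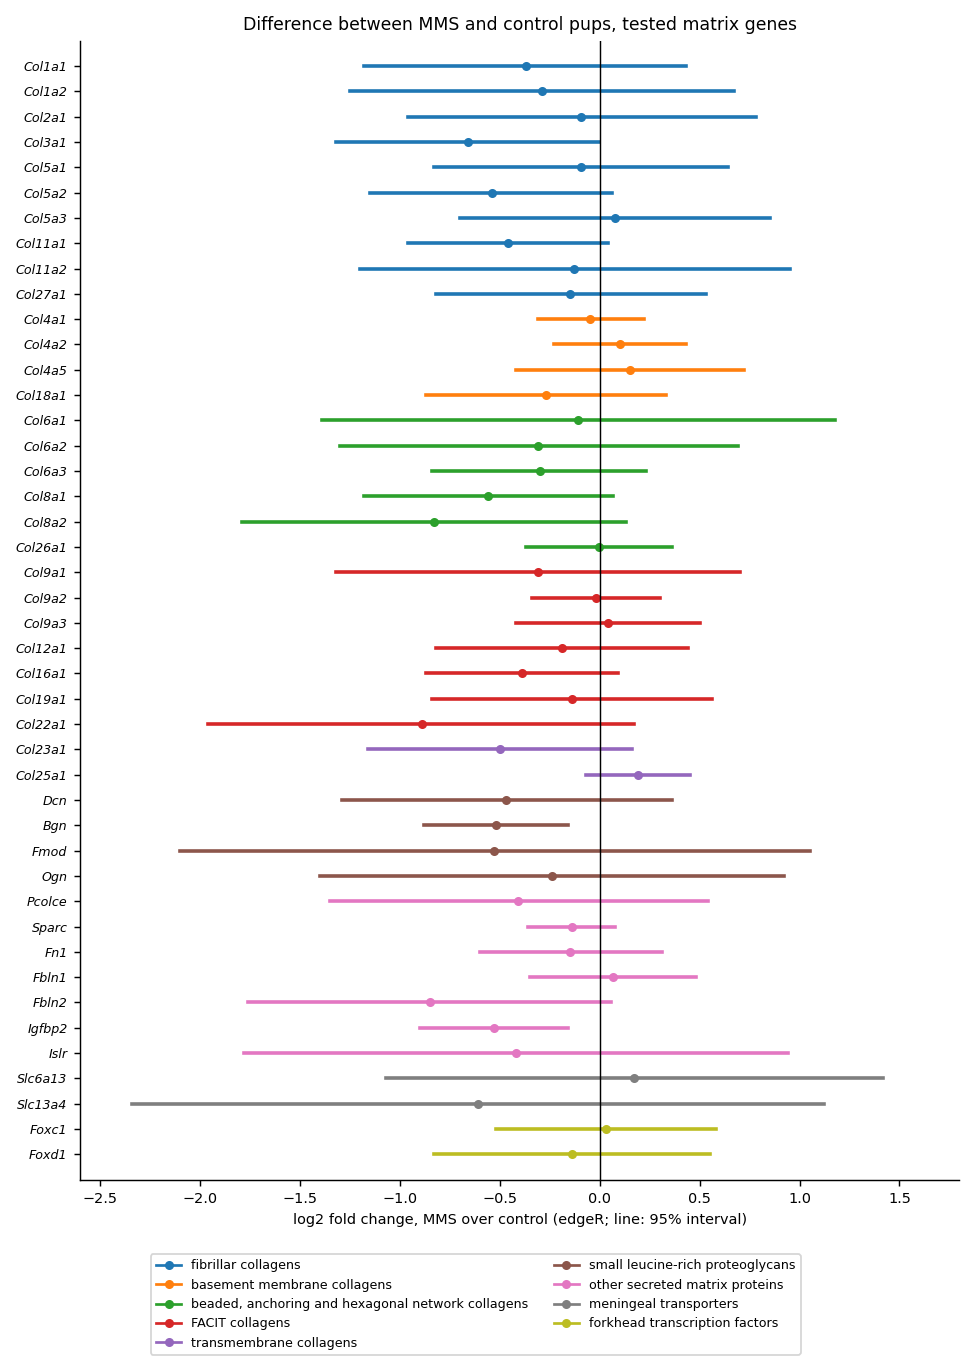
Log2 fold change of MMS over control (x axis) for each of the 44 members tested (y axis), coloured by role, where a point is the edgeR estimate and a line its 95% interval. Points lie left of 0 in 36 members, and the interval lies wholly below 0 in 3, Col3a1, Bgn and Igfbp2.

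The members at an unadjusted p under 0.05 were Bgn, Igfbp2 and Col3a1. Bgn encodes biglycan, a small proteoglycan that binds collagen fibres. Its level was 21.5, 27.3 and 33.1 CPM (lowest, median and highest) in controls and 14.0, 19.1 and 25.7 CPM in the MMS group. Of the MMS libraries, 4 lay below every control and the other 2 within the control range. The log2 fold change came to -0.52 (SE 0.17, unadjusted p 0.00690, adjusted p 0.543 in edgeR's quasi-likelihood test).

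Igfbp2 ran from 64.9 through a median of 85.6 to 124 CPM in controls and from 45.7 through 56.2 to 81.7 CPM in the MMS group, again with 4 MMS libraries below every control. Its log2 fold change came to -0.53 (SE 0.18, unadjusted p 0.00715, adjusted p 0.543 in the same edgeR test). Col3a1, the chain of type III collagen, which is typical of soft tissue and vessel walls, ran from 17.7 through 22.5 to 44.1 CPM in controls and from 8.51 through 12.5 to 31.1 CPM in the MMS group. For Col3a1 too, 4 MMS libraries lay below every control, and the top control value came from control 3. The log2 fold change came to -0.66 (SE 0.31, unadjusted p 0.0490, adjusted p 0.547 in edgeR). Annotated exons of Col3a1 overlap those of Gm47302 on the same strand, so reads of this pair may have been shared.

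In GRCm38 the 3 genes lie on plus strands, Col3a1 at chr1:45311538-45349706, Igfbp2 at chr1:72824503-72852474 and Bgn at chrX:73483602-73495933. The call at the unadjusted threshold did not hold for these genes under every setting. That of Col3a1 was also lost with RLE scaling, with no count filter, with 1 surrogate variable, and on leaving out control 3, 4, 5 or 6 or MMS 2, 4, 5 or 6 singly. Bgn and Igfbp2 kept theirs in each of these settings. Without MMS 2 and MMS 4 the log2 fold changes were -0.33 for Bgn, -0.35 for Igfbp2 and -0.42 for Col3a1, none of them at an unadjusted p under 0.05, and the 1 member then below it was Fbln2 (background 2.62%). Without MMS 1, 15 of 46 members tested were lower at an unadjusted p under 0.05, against 4.97% of all genes, and again 0 passed the adjusted threshold (lowest adjusted p 0.354 in edgeR). Leaving out control 1 gave 6 of 45 such members (background 3.64%) and leaving out control 4 gave 5 of 45 (background 3.70%). The number fell to 2 on leaving out MMS 4, MMS 5 or MMS 6 (backgrounds 2.70%, 6.24% and 5.81%). Each other library left out singly gave 3 or 4 (backgrounds 2.61% to 4.40%). Without control 3 and MMS 1 together, a choice made after the values were seen, there were 10 of 43 (background 3.83%, lowest adjusted p 0.558 in edgeR).

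The sequences just upstream of these 3 genes are shown because theirs are the member genes with the smallest p. Each is the 250 bases before the RefSeq start (GRCm38.p6), 5′ to 3′ on the gene's strand, in a window where the GENCODE annotation places no exon. Capitals mark matches to the letters of the TATA box motif (TATAAA, gene strand only) or the GC box motif (GGGCGG, either strand, so also CCGCCC). Matches were taken at any place in the window. CCAAT, searched on both strands, occurs in none of these windows. The Col3a1 window is chr1:45311288-45311537, plus strand, with 35.2% G and C:
Col3a1: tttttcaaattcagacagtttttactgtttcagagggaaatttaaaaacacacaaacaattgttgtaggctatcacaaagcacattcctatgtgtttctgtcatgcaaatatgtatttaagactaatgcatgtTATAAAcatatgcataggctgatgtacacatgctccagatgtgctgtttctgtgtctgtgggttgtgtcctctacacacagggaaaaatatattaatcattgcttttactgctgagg
The Bgn window is chrX:73483351-73483600, plus strand, with 64.4% G and C, and its last 2 matches overlap:
Bgn: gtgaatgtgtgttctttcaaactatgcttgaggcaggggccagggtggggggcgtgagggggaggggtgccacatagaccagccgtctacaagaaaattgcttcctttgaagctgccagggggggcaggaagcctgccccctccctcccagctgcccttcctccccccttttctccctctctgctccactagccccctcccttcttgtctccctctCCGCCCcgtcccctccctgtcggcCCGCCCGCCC
The Igfbp2 window is chr1:72824230-72824479, plus strand, with 67.2% G and C:
Igfbp2: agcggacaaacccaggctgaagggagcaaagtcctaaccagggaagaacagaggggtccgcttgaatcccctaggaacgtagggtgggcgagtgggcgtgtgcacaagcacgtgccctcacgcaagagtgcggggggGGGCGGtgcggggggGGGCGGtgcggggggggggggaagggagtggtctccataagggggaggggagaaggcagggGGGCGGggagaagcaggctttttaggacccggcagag

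The Col3a1 window thus holds 1 TATAAA match and no GC box match. The Bgn and Igfbp2 windows hold 3 GC box matches each and no TATAAA match. Windows were found for 47 of the 59 members, some with more than 1 start, 54 windows in all. TATAAA occurred in 9.26% of the member windows and 7.59% of all 32851 windows, CCAAT in 29.6% against 33.8%, and GGGCGG in 57.4% against 32.7%. A match describes these letters in this window and does not show a bound factor. Its distance from the start was not weighed, so the TATAAA match of Col3a1 is not shown to be a working TATA box.

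Fibrillar collagens, which bear the tensile load of connective tissue, gave 9 of 10 tested chains with a fold change below 0 (median -0.22), 1 of them at an unadjusted p under 0.05. The major pair encodes type I collagen. Col1a1 was read at 28.0, 33.5 and 57.2 CPM (lowest, median, highest) in controls and at 9.61, 28.5 and 62.5 CPM in the MMS group. Both extremes of Col1a1 were MMS libraries, MMS 5 at the bottom and MMS 1 at the top. Col1a2 showed the same order at the ends, with 31.2, 51.7 and 87.9 CPM in controls and 19.8, 32.0 and 113 CPM in the MMS group. The log2 fold changes were -0.37 (SE 0.37) for Col1a1 and -0.29 (SE 0.44) for Col1a2, with edgeR adjusted p of 0.755 and 0.844. Without MMS 1 they were -0.71 and -0.81, and without control 3 they were -0.23 and -0.10. The other 7 tested fibrillar chains besides type III lay between -0.54 and 0.075 with intervals that included 0, Col5a3 being the 1 with a value above 0.

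Basement membrane collagens had fold changes on both sides of 0. Col4a1, one chain of the type IV network, was read at 41.0, 50.2 and 55.5 CPM in controls and at 37.7, 45.1 and 59.7 CPM in the MMS group, and Col4a2, its partner, at 36.7, 53.6 and 61.7 CPM and at 36.1, 59.2 and 72.8 CPM. The groups overlapped in both genes, with 2 MMS libraries above every control for Col4a1 and 3 for Col4a2, and 1 below for each. The log2 fold changes were -0.048 (95% interval -0.31 to 0.22) for Col4a1 and 0.10 (-0.23 to 0.43) for Col4a2, so that a halving lay outside both intervals. Col18a1, whose C-terminal fragment is endostatin, had -0.27 (-0.87 to 0.33). Of the 4 tested members of this group 2 lay below 0 and the median was 0.027. Col4a1 and Col4a2 are transcribed away from each other on chromosome 8, and in the GENCODE annotation of GRCm38 their starts lie 21 bases apart. Their annotated exons overlap on opposite strands only at these starts, whereas the libraries were read from the 3′ end of the transcript. Whether counting used strand is not given in the sources used here.

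In the beaded, anchoring and hexagonal network collagens all 6 tested chains lay below 0, with a median of -0.31 and none at an unadjusted p under 0.05. Col6a2, a chain of the beaded type VI collagen around cells, was read at 6.32, 11.1 and 21.1 CPM in controls and at 4.43, 6.69 and 26.0 CPM in the MMS group, with MMS 1 highest and MMS 4 lowest. Col6a3, the third chain of that collagen, had medians of 9.96 and 9.31 CPM. Col26a1 was level, with a log2 fold change of -0.0057 (95% interval -0.37 to 0.36), and its sign turned under RLE scaling (0.00044).

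Among the FACIT collagens, which sit on the surface of fibres, 6 of 7 tested chains lay below 0, with a median of -0.19. Col9a2 and Col9a3 belong to type IX collagen, best known from cartilage. Col9a2 was read at 41.5, 47.0 and 59.0 CPM in controls and at 36.5, 43.0 and 74.0 CPM in the MMS group (log2 fold change -0.018, 95% interval -0.34 to 0.30), the highest value again in MMS 1. Markers of cartilage and bone were near 0 beside it: of 8, all but Sox9 and Acan stayed under 2 CPM in every library, Acan reached 3.44 CPM, and Sox9, which glial cells also express, had 128 to 407 CPM. Col9a3 stood at 0.04 and Col16a1 at -0.39 (edgeR adjusted p 0.959 and 0.592). The annotated exons of Col9a3 overlap those of Tcfl5 on the other strand.

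Col25a1, a membrane collagen made by neurons, was the member with the highest log2 fold change, 0.19 (95% interval -0.07 to 0.45, edgeR adjusted p 0.626). Its controls ran from 38.3 through 39.0 to 49.3 CPM and its MMS libraries from 40.0 through 44.7 to 62.2 CPM. No MMS library lay below the control range and 2 lay above it. Col23a1, the other tested membrane collagen, had medians of 19.6 CPM in controls and 14.0 CPM in the MMS group (log2 fold change -0.50, 95% interval -1.16 to 0.16).

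**Figure D2:**
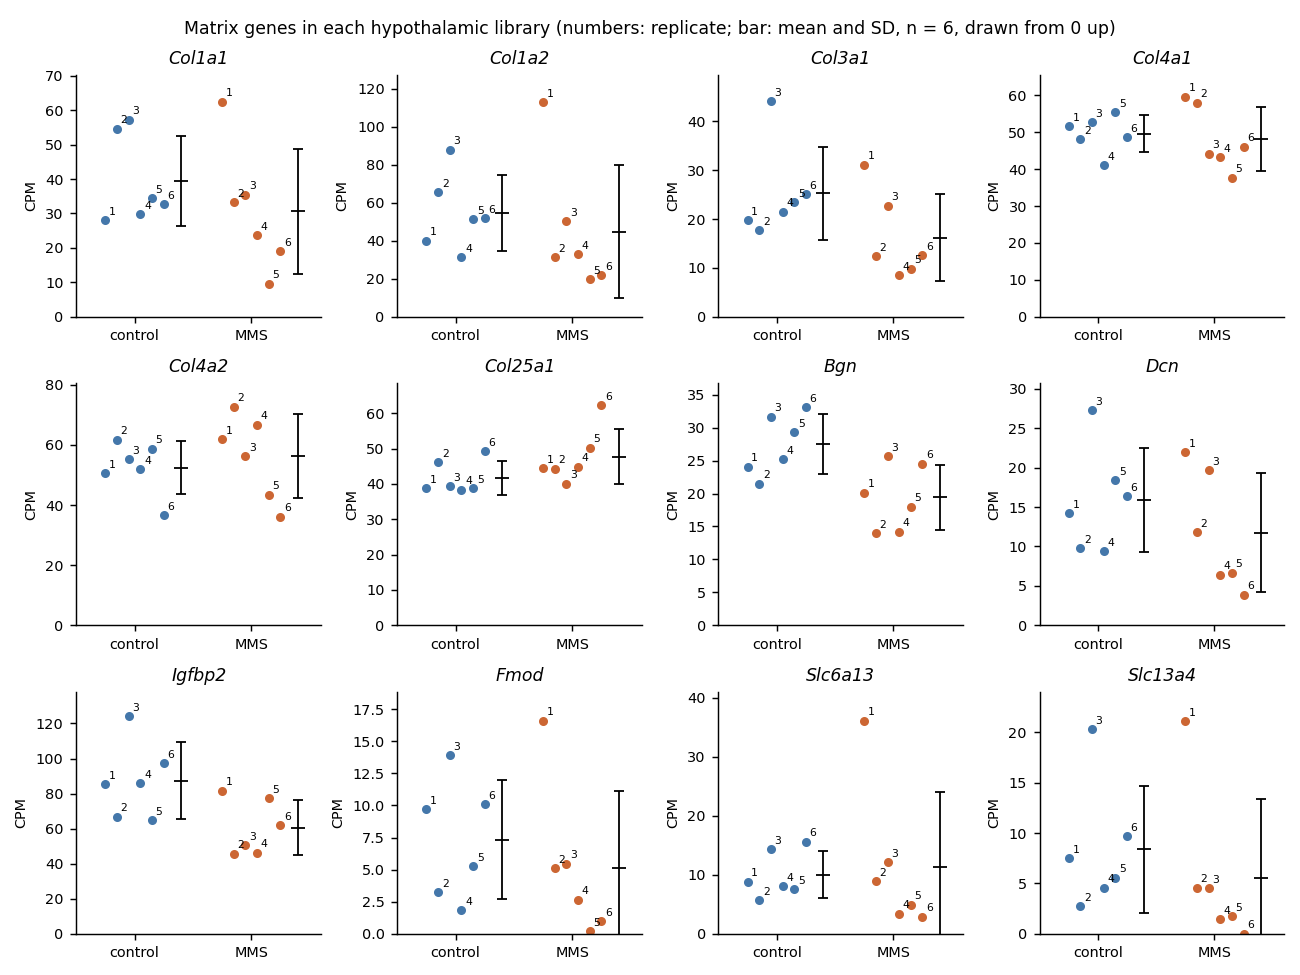
CPM (y axis, linear from 0) of 12 members in each library, controls in blue and MMS in orange, with the replicate number at each point and the mean and SD (n = 6) as a bar. The widest points are mostly MMS 1 and control 3, as for Slc6a13 with 36.1 CPM in MMS 1, while Col4a1 and Col25a1 stay within a narrow band.

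The small leucine-rich proteoglycans, which regulate fibre width, all lay below 0 in the 4 members tested, with a median of -0.49. Decorin (Dcn), the best known of them, was read at 9.40, 15.3 and 27.3 CPM in controls and at 3.86, 9.24 and 22.0 CPM in the MMS group. The groups overlapped over most of this range, although 3 MMS libraries lay below every control. Its log2 fold change came to -0.47 (SE 0.39, edgeR adjusted p 0.702). Fibromodulin (Fmod) ran from 1.83 through 7.47 to 13.9 CPM in controls and from 0.196 through 3.88 to 16.6 CPM in the MMS group. The lowest of these values, in MMS 5, came from 1 count. Ogn, or osteoglycin, had almost equal medians, 2.97 and 2.96 CPM, and its log2 fold change of -0.24 turned to 0.042 without control 3.

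Of the other secreted proteins 6 of 7 lay below 0, with a median of -0.41. Sparc, with a log2 fold change of -0.14 (95% interval -0.36 to 0.075), was the member measured with the narrowest interval. Fibronectin (Fn1), which links matrix to cells, had medians of 39.3 CPM in controls and 31.2 CPM in the MMS group (-0.15, SE 0.22). Fibulin 2 (Fbln2), a partner of basement membranes and elastic fibres, had 2.06, 3.30 and 6.79 CPM in controls and 0.588, 1.52 and 4.03 CPM in the MMS group, with 3 MMS libraries below every control. Its log2 fold change came to -0.85 (SE 0.44, edgeR adjusted p 0.560) on 162 counts in all. Fibulin 1 (Fbln1) stood at 0.069 (SE 0.20), and turned to -0.10 without MMS 1. Pcolce, which speeds the trimming of procollagen ends, stood at -0.41 (SE 0.45), and Islr, a secreted or surface protein of fibroblasts, at -0.42 (SE 0.62). Exons of Islr overlap those of Islr2, and exons of Pcolce those of Fbxo24, on the same strand, so reads of these pairs may have been shared.

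The transporters varied widely between libraries. Slc13a4 was read at 2.72, 6.54 and 20.3 CPM in controls and at 0, 3.15 and 21.1 CPM in the MMS group. Its highest values were MMS 1 and control 3, and it had no read in MMS 6, which allows up to 3 counts. Slc6a13 was read at 5.71, 8.42 and 15.6 CPM in controls and at 2.90, 6.88 and 36.1 CPM in the MMS group, with MMS 1 highest and MMS 6 lowest. The log2 fold changes were -0.61 (SE 0.79) for Slc13a4 and 0.17 (SE 0.57) for Slc6a13, and without MMS 1 they were -1.80 and -0.66. Foxc1, a forkhead factor needed for the meninges to form, and Foxd1, a forkhead factor that the developing hypothalamus also uses, stood at 0.032 (SE 0.26) and -0.14 (SE 0.33), with control medians of 9.07 and 5.30 CPM and MMS medians of 9.32 and 4.93 CPM.

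The spread between libraries was itself large in these genes. The biological coefficient of variation is edgeR's estimate of the spread between libraries of 1 group beyond counting error. Its median was 34.6% over the 44 members and 19.2% over all genes tested. Since this measure falls with abundance, each gene was set beside the trend for its level: 38 of 44 members lay above the trend, with a median ratio of 1.25, against 4661 of 13104 genes with a median ratio of 0.936. A wide spread was not particular to the members. The median ratio was 2.36 over hypothalamic markers, 2.32 over ependymal and over other leptomeningeal markers, and 1.36 over red blood cell markers. It was 1.09 over endothelial markers and 0.959 over the enzymes and partners of collagen. Slc13a4 (98.5%), Fmod (87.5%), Islr (74.6%), Col6a1 (69.4%), Slc6a13 (66.0%) and Ogn (61.8%) were widest. Narrowest were Col25a1 (14.6%), Sparc (14.9%), Col4a1 (15.2%), Col9a2 (18.3%), Col4a2 (18.9%) and Bgn (19.1%).

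**Figure D3:**
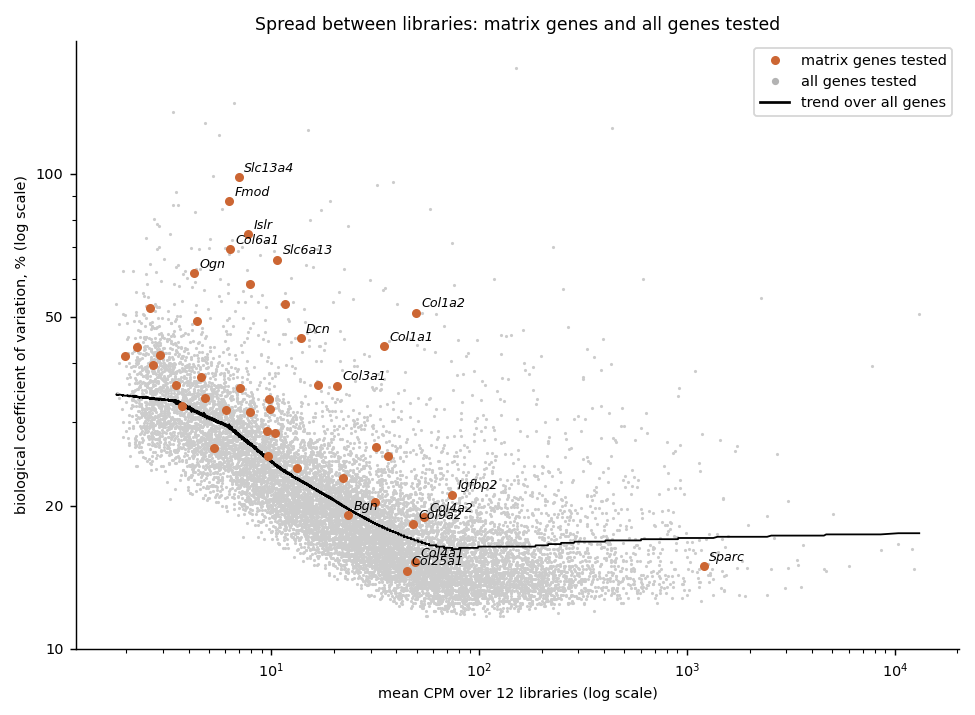
Biological coefficient of variation in percent (y axis, log scale) against mean CPM over 12 libraries (x axis, log scale), with the 44 members tested in orange, all 13104 genes in grey and the trend over all genes as a line. Members lie above the line in 38 of 44 cases, Slc13a4 at 98.5% and Col25a1 at 14.6% marking the ends.

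The same few libraries held the extremes. MMS 1 was the highest of the 12 libraries in 16 of 44 members and control 3 in 15, and each was among the top 2 in 26 members. MMS 5 was lowest in 13 members, MMS 4 in 12 and MMS 6 in 7. These 3 were among the lowest 3 libraries in 28, 26 and 21 members. In the 10 members with the widest spread, MMS 1 was highest in 8, and MMS 6 was among the lowest 3 in 9. The extremes thus fell on both sides within the MMS group, whereas the 5 other controls had median ranks between 4.5 and 8, counted from the highest library.

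**Figure D4:**
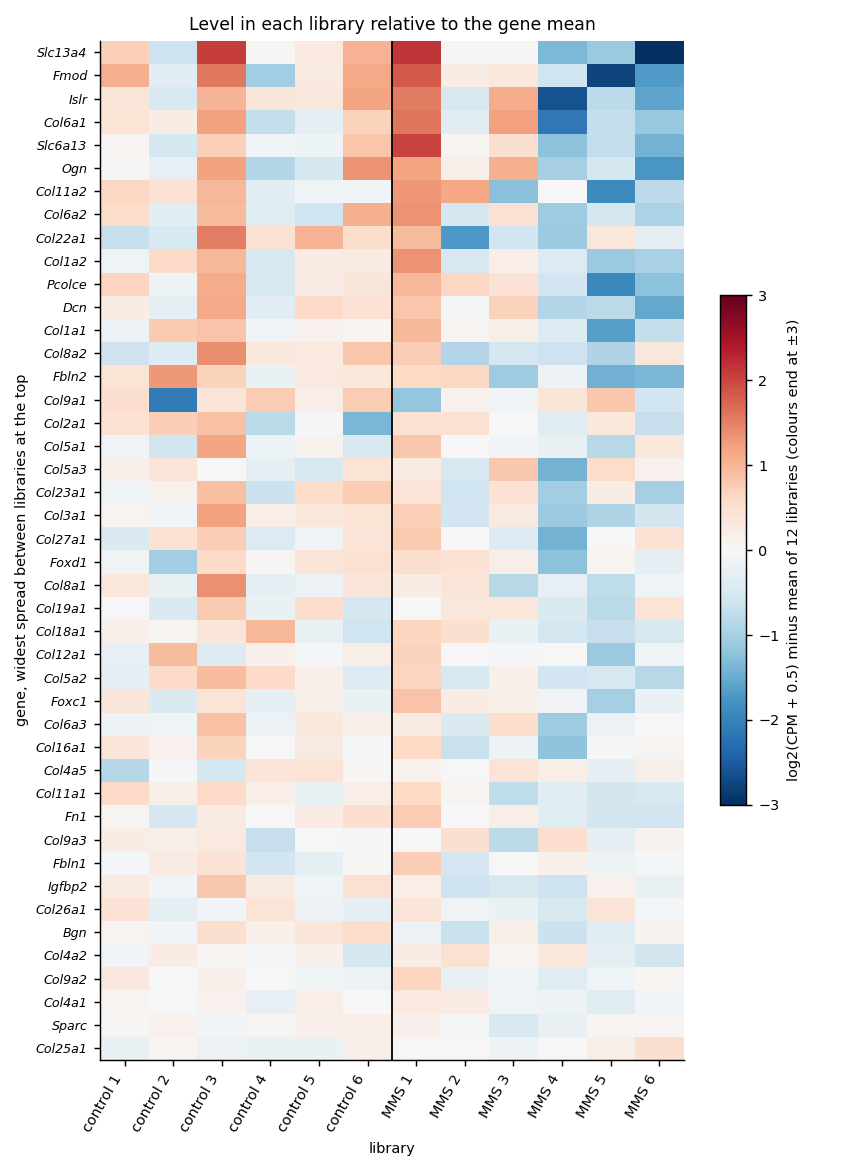
Level of each of the 44 members (rows, widest spread at the top) in each of 12 libraries (columns), as log2(CPM + 0.5) minus the gene's mean over libraries, red above and blue below it. In the upper rows control 3 and MMS 1 are mostly red and MMS 4, MMS 5 and MMS 6 mostly blue, and in the lowest rows, from Bgn to Col25a1, colours are pale throughout.

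Summed over all members, controls had 1912 to 2205 CPM and MMS libraries 1573 to 2449.7 CPM. Every MMS library lay outside the control range, 5 of them below it, between 1573 and 1841 CPM, and MMS 1 above it. Most of this sum was Sparc. Without Sparc, controls had 688 to 1078 CPM and MMS libraries 543 to 1118 CPM, MMS 3 (713 CPM) lying inside the control range. Collagens alone summed to 477 to 718 CPM in controls and 395 to 760.4 CPM in the MMS group. For them MMS 2 (485 CPM) and MMS 3 (491 CPM) lay inside the control range. Fibrillar collagens summed to 122 to 262 CPM in controls and 68.6 to 279 CPM in the MMS group. The basement membrane group summed to 102 to 139.8 CPM and 94.9 to 154 CPM, a 1.62-fold range over the 12 libraries against a 4.06-fold range for the fibrillar group. The pair of transporters had a 19.7-fold range, from 2.90 CPM in MMS 6 to 57.1 CPM in MMS 1.

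Other markers of the leptomeninges had some of the same extremes, but did not follow these sums in every library. The summed level of 10 such genes outside the member list ran from 70.6 to 1009 CPM in controls and from 36.7 to 1963 CPM in the MMS group. Most of it was Ptgds, which encodes a prostaglandin synthase and is also made by other brain cells, with 23.6 to 1871 CPM. The highest library was MMS 1 and the next control 3, and the lowest were MMS 4 and MMS 5 (41.4 CPM). In control 2 the 10 genes had their lowest control sum, 70.6 CPM, while its fibrillar collagens summed to 190.2 CPM. In MMS 3 they summed to 742 CPM, while all members there summed to 1576 CPM. Most of that sum was Sparc, which was lowest in MMS 3 (863 CPM). The members without Sparc summed to 713 CPM there, second to MMS 1 in the MMS group. Of the 10, 8 were tested, 5 of them below 0, with 0 at an unadjusted p under 0.05. Tbx18, Foxc2 and Osr1 were at 0 in at least 1 MMS library. In bulk tissue, fewer cells of a type and less RNA per cell cannot be told apart, and the part that the amount of meningeal tissue in a dissected piece had in the members' values was not tested.

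Markers of other cells near the hypothalamus were also read. The 8 choroid plexus markers summed to 1791 CPM in control 3, of which Ttr gave 1735 CPM, and to 13.8 to 45.8 CPM in the other 11 libraries, MMS 1 included (22.7 CPM), and all 4 that were tested lay below 0, with a median log2 fold change of -0.16. The 9 endothelial markers summed to 181 to 222 CPM in controls and 135 to 223 CPM in the MMS group, with 6 of 9 below 0 and a median of -0.11. Cldn5, a tight junction protein of brain endothelium, had the smallest p of these, with a log2 fold change of -0.60 (SE 0.15, unadjusted p 0.000446, adjusted p 0.385 in edgeR's quasi-likelihood test) and 5 MMS libraries below every control. The 9 pericyte and smooth muscle markers had 169 to 196 CPM and 149 to 213 CPM, with 4 of 7 tested below 0. For both of these lists MMS 1 was the highest library and MMS 5 the lowest, as for the summed collagens. The 10 markers of ciliated ependymal cells ran from 77.1 to 178 CPM in controls and from 16.9 (MMS 2) and 36.4 (MMS 4) to 171 CPM in the MMS group, and all 7 tested lay below 0 (median -0.78). The 5 red blood cell markers summed to 849.7 to 1534 CPM and to 616 to 1499 CPM, and all 5 lay below 0 (median -0.36). The 6 pituitary markers had at most 41.2 CPM, with Pou1f1 at 0 in every library. Which of these cells the members' reads came from was not tested.

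**Figure D5:**
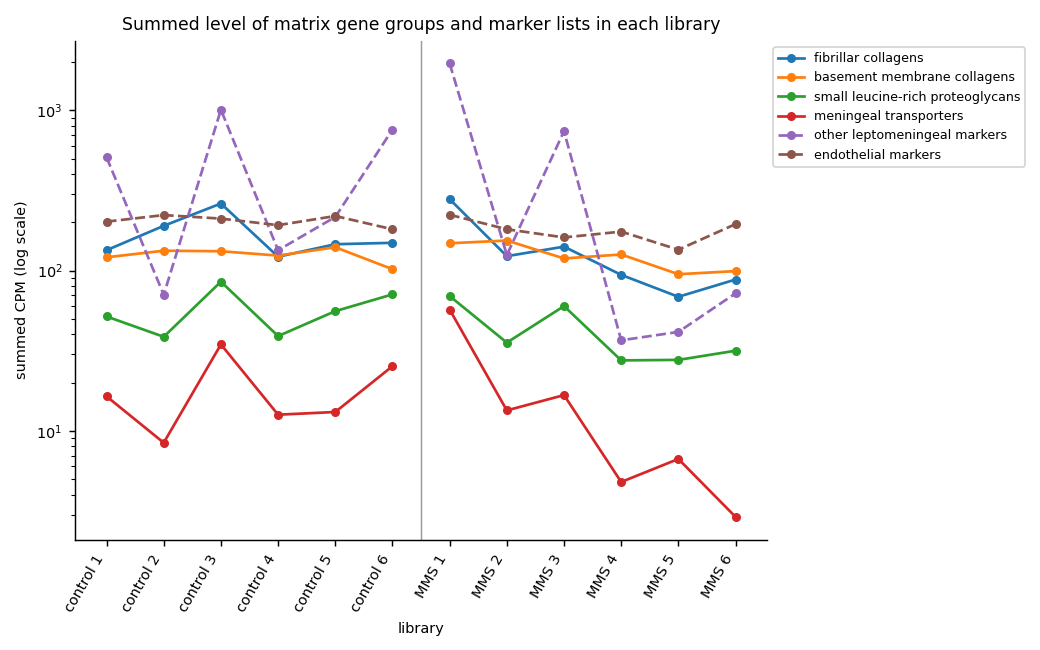
Summed CPM (y axis, log scale) of 4 member groups (solid lines) and 2 marker lists (dashed lines) in each library (x axis). The lines of the transporters and of the other leptomeningeal markers both peak at MMS 1, at 57.1 and 1963 CPM, while the basement membrane collagens (94.9 to 154 CPM) and the endothelial markers (135 to 223 CPM) vary less.

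Chains that are assembled into 1 molecule were compared within libraries. The ratio of Col1a2 to Col1a1 was 1.38 ± 0.214 in controls and 1.46 ± 0.415 in MMS pups (SD, n = 6, 2-sided exact permutation test over the 12 libraries, p = 0.823, adjusted over 3 ratios 0.823). Its coefficient of variation over the 12 libraries was 22.3%, while Col1a2 and Col1a1 themselves varied by 55.8% and 45.2%. The type I chains thus varied largely together, although the ratio ran from 0.935 in MMS 2 to 1.81 in MMS 1 and 2.06 in MMS 5. Col4a2 to Col4a1 was 1.06 ± 0.197 in controls and 1.17 ± 0.254 in MMS pups (SD, n = 6, exact permutation p = 0.474, adjusted 0.823). Here the ratio varied slightly less than Col4a2 (20.8%) and more than Col4a1 (14.0%). Col6a2 to Col6a1 was 2.03 ± 0.583 and 2.62 ± 1.85 (SD, n = 6, exact permutation p = 0.699, adjusted 0.823), the wide MMS spread coming from MMS 4, with a ratio of 6.25 on 4 counts of Col6a1. That ratio varied by 57.7%, against 62.6% for Col6a2 and 74.6% for Col6a1.

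The enzymes and partners of collagen had a median closer to 0. Of 51 listed genes for collagen modification, cleavage, basement membranes and receptors, 39 were tested, 22 of them below 0 with a median log2 fold change of -0.037. No gene of these lists passed the adjusted threshold (lowest adjusted p 0.471 in edgeR). At an unadjusted p under 0.05, 4 of the 39 were lower and 0 higher, against 4.40% of all genes lower and 4.68% higher. Colgalt1, which adds galactose to collagen lysines, had the smallest p. Its level was 116, 128 and 146 CPM in controls and 63.7, 94.0 and 116 CPM in the MMS group, so that all 6 MMS libraries lay below every control, the nearest by less than the rounding of these values, and its log2 fold change came to -0.47 (SE 0.13, edgeR adjusted p 0.471). Serpinh1, the collagen chaperone HSP47, had 32.1, 46.2 and 73.0 CPM in controls and 11.3, 26.2 and 43.8 CPM in the MMS group (-0.86, SE 0.28, edgeR adjusted p 0.543).

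By role, 7 of 16 tested genes for modification, folding and export lay below 0, and 3 of 7 for procollagen cleavage and cross-linking, with medians of 0.017 and 0.0067. In the cleavage list Adamts3, a procollagen protease, and Loxl3, a cross-linking oxidase, stood at -0.45 (SE 0.33) and -0.37 (SE 0.36). Among the basement membrane partners 9 of 12 lay below 0 (median -0.076), with the laminin chains Lamb1 at -0.63 (SE 0.21, edgeR adjusted p 0.543) and Lama1 at -0.60 (SE 0.34). Of 4 collagen receptors tested 3 lay below 0: the collagen-activated kinase Ddr1 stood at -0.49 (SE 0.19, edgeR adjusted p 0.543), while the integrin chain Itgb1 stood at 0.087 (SE 0.12).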

How the data were processed

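Hypothalamic RNA of 6 control and 6 MMS pups had been made into 3′ libraries, sequenced on an Ion Proton and aligned to mm10. For the counting tool, its annotation and its use of strand, nothing is given in the sources used here. Raw counts per gene were deposited by the authors, 1 column per library. Rows whose symbol had become a date (27) held 0.175% of counts. The authors' own comparison was not used.

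Counts were fitted with edgeR 4.0.16 (R 4.3.3; TMM, filterByExpr with a minimum count of 10, robust quasi-likelihood test, all 12 libraries, no covariate) and adjusted over 13104 genes, with a threshold of 0.05. Depth was 3218777 to 6560620 counts per library, and intervals and floors cover counting error only where no replicate spread enters. In 30 pairs of libraries of 1 group, counts differed by more than sampling noise (chi-square per degree of freedom 4.04 to 31.5), so none was a copy. Scripts were tested on simulated counts.

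The members and lists were chosen with earlier results of these data known. Named were all listed members tested, the top 3 tested of each collagen group by mean CPM, members at an unadjusted p under 0.05, the 2 pathway genes with the smallest p and the 2 markers with the highest mean CPM of each list. Coordinates follow GENCODE M21 (GRCm38). Alternatives were RLE scaling, other count filters, DESeq2 1.42.0, limma-voom (limma 3.58.1), a replicate block, 1 surrogate variable (sva 3.50.0) and leaving out libraries.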

Additional observations from a re-analysis of the deposited data

Results flagged for a closer look

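A Dixon test for a sample far from the rest of its group singled out 8 of 66 sets of 6 libraries. The sets were 29 named members, the sum of all members and 3 chain ratios, in each group. For normally distributed values chance gives about 3.30. CPM and ratios were tested without a log transform, and all 8 stood above their group, so the excess over 3.30 cannot be interpreted. In MMS 1, 6 values stood apart from the other 5 MMS libraries: Slc6a13 at 36.1 CPM (next 12.1), Slc13a4 at 21.1 CPM (next 4.57), Fmod at 16.6 CPM (next 5.45), Col1a2 at 113 CPM (next 50.3), Col9a2 at 74.0 CPM (next 49.3) and the summed CPM of all members at 2449.7 (next 1841). Col3a1 in control 3 was 44.1 CPM, with the next control at 25.1 CPM. The ratio of Col6a2 to Col6a1 in MMS 4 was 6.25, with the next MMS library at 2.50. The members share their libraries, so these 8 are not independent of each other.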

How the results depend on the processing

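No member and no pathway gene passed an adjusted p of 0.05 under any of 21 alternatives, and the members' median log2 fold change stayed below 0, from -0.52 to -0.11. Over all genes, 7 passed with DESeq2, 5 without MMS 2 and MMS 4, and at most 1 in each other setting. The number of members lower in MMS was 36 of 44. It was 14 of 18 tested with a mean count of at least 50, where fewer genes enter, 32 of 46 without MMS 2 and MMS 4, and 29 to 41 with each library left out in turn. Members at an unadjusted p under 0.05 numbered 3. They numbered 5 with no count filter, 7 with limma-voom and 7 with the replicate block. At that threshold 3.82%, 6.32% and 5.56% of all genes were lower. With RLE scaling (4.10%) and 1 surrogate variable (4.55%) there were 2 each. There was 1 without MMS 2 and MMS 4 (2.62%), and there were 10 without control 3 and MMS 1 (3.83%), chosen after seeing the data. With each library left out in turn there were 2 to 15 (2.61% to 6.24%). The causes were not tested. Of 52 genes named, 33 kept 1 sign throughout.

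Replicate numbers are shared between the groups, but same-numbered libraries deviated together with correlations of -0.0476 to 0.116, and 2 of 6 libraries correlated best with their own number, so the numbers were not taken as pairs. With the replicate block the log2 fold changes of Slc6a13 (-0.19), Foxc1 (-0.013), Ptgds (-0.97) and Otx2 (0.0018) turned, and with limma-voom the same genes (-0.36, -0.089, -1.02 and 0.02). Col26a1 turned with RLE scaling (0.00044), no count filter (0.0054) and DESeq2 (0.0012). With 1 surrogate variable Otx2 (0.21) and Oxt (-0.12) turned. Without control 3 and MMS 1, Slc6a13 (-0.53), Foxc1 (-0.093), Ptgds (-0.73) and Otx2 (0.19) turned. Without MMS 2 and MMS 4, Ogn (0.016), Islr (0.02), Col4a2 (-0.078), Col26a1 (0.14), Col6a2 (0.009), Col9a2 (0.13), Col9a3 (-0.24), Loxl3 (0.011), Tmem212 (0.14), Pmch (-0.14) and the log2 differences of the ratios of type IV (-0.0023) and type VI chains (-0.11) turned.

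With each library left out in turn, values crossed 0 for Ogn (-0.6 to 0.093), Fbln1 (-0.1 to 0.18), Slc6a13 (-0.66 to 0.39), Foxc1 (-0.19 to 0.2), Foxd1 (-0.29 to 0.066), Col4a1 (-0.11 to 0.026), Col26a1 (-0.088 to 0.092), Col9a2 (-0.18 to 0.059), Col9a3 (-0.07 to 0.16), Itgb1 (-0.021 to 0.17), Ptgds (-1.16 to 0.61), Otx2 (-0.25 to 0.33) and the ratios of type I (-0.063 to 0.16) and type VI chains (-0.11 to 0.35). Depth limits the 15 members left untested.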
